A study of Mus musculus with 6 samples.

Results

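POU factors are transcription factors that hold DNA with a POU-specific domain and a linked POU homeodomain, and the family is best known for binding the octamer ATGCAAAT. Pou5f1 (Oct4) keeps embryonic stem cells pluripotent, whereas class III factors are widely used in the developing nervous system and class IV factors are used in sensory neurons and retinal ganglion cells. The 9 POU genes other than Pou5f1 that were chosen by symbol are described here: Pou2f1, Pou2f2, Pou3f1, Pou3f2, Pou3f3, Pou3f4, Pou4f1, Pou4f2 and Pou6f1. They are 9 of the 41945 genes and loci in the table, each has 1 entry, and all 9 reached at least 1 FPKM in either genotype. FPKM counts the sequenced fragments of a gene relative to its transcript length and to the depth of the library, so levels can be compared between genes.

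The cells were motor neurons (MNs) made from mouse embryonic stem cells (mESCs) on an FVB/N background. Hb9 control mESCs are wild type for mouse Smn and A2 SMA mESCs are SMN2+/+;mSmn-/-, and both lines carry the human SMN2 transgene and express eGFP from the Hb9 promoter. Both were treated for 5 days with 1 µM retinoic acid and 1 µM Smoothened agonist, and eGFP-positive cells were collected by FACS. The cells are called control MNs and SMA MNs from here on. Of 6 sequenced samples 3 came from each genotype, but each genotype is 1 cell line and the table holds 1 combined FPKM value per genotype. The differences below therefore have no replicate check, no SD and no p, and genotype and cell line cannot be told apart. The number of reads behind each value is unknown.

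Smn1, the deleted gene, was at 137 FPKM in control MNs and 5.26 FPKM in SMA MNs, which matches the labels. Mnx1, which encodes Hb9, was at 41.2 and 44.2 FPKM. The filter kept 14926 named genes that reached 1 FPKM in one genotype or the other and were not at 0 in either, and these are called all genes. Their median log2 ratio of A2 SMA over control MNs was -0.29. At least 2-fold lower FPKM in SMA MNs was found for 22.4% of these genes and at least 2-fold higher FPKM for 6.83%. Of the genes past 2-fold 23.4% were higher, or 38.8% when ratios were centred on the median gene.

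Of the 9 POU genes, 6 were at least 2-fold lower in SMA MNs, against 22.4% of all genes, and none was at least 2-fold higher, against 6.83%. Past 2-fold in either direction were thus 6 of 9, beside 29.2% of all genes, and 7 of 9 were lower by any amount, beside 65.9%. Their median log2 ratio was -1.92, or -1.14 with a pseudocount of 1 FPKM. Pou3f2, Pou3f3, Pou3f4 and Pou2f2 were more than 8-fold lower, a difference shown by 4.19% of all genes. Pou4f2 and Pou6f1 were lower by smaller folds. Pou4f1, Pou2f1 and Pou3f1 stayed within 2-fold, and the last of these had the highest ratio of the 9 genes.

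**Figure D1:**
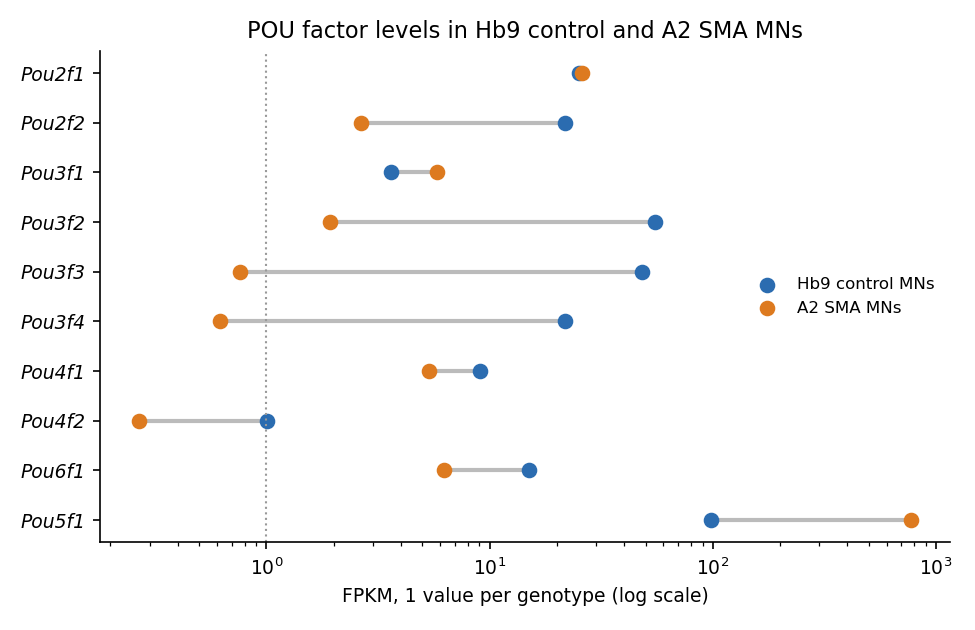
FPKM of the 9 POU genes and of Pou5f1 in Hb9 control MNs (blue) and A2 SMA MNs (orange), 1 value per genotype on a log axis, with a dotted line at 1 FPKM. Pou3f2, Pou3f3 and Pou3f4 have the longest gaps, the points of Pou2f1 overlap, and Pou5f1 runs the other way.

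Class III holds the paralogs Pou3f1 (Oct6, SCIP), Pou3f2 (Brn2), Pou3f3 (Brn1) and Pou3f4 (Brn4). Pou3f2, a neural factor that is used to convert fibroblasts into neurons, is annotated at chr4:22408432-22415738 (NCBI m37, used for all positions in the table). It was at 55.1 FPKM in control MNs, the highest level of the 9 genes, and at 1.93 FPKM in SMA MNs. Its level was 28.5-fold lower in SMA MNs, a log2 ratio of -4.83. control MNs had more Pou3f2 than 80.2% of all genes, and SMA MNs had more than 17.0% of them.

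Pou3f3, which acts beside Pou3f2 in the developing cortex and is also used in the kidney, lies on chromosome 1 in a locus from 42751770 to 42797813. Its level was 48.1 FPKM in control MNs and 0.765 FPKM in SMA MNs, a log2 ratio of -5.97. This is a 62.9-fold difference, and 21 of the 14926 genes had a lower ratio. Cuffdiff gave this entry the status FAIL, so its FPKM values are listed but were not tested by the authors. The status was shared by 14% of all genes.

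Pou3f4, an X-linked gene needed for inner ear development, lies from 108009707 to 108013458. It was at 21.7 FPKM in control MNs and 0.621 FPKM in SMA MNs, a 35.0-fold difference with a log2 ratio of -5.13. A pseudocount of 1 FPKM moves the log2 ratio to -3.81, because the level in SMA MNs is under 1 FPKM. The order Pou3f2, Pou3f3, Pou3f4 held in both genotypes, but whether neighbours in that order differ beyond the spread between samples is unknown.

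Pou3f1, a marker of particular motor neuron pools that is also active in the epiblast and in Schwann cells, lies on chromosome 4 from 124334050 to 124337899. It was at 3.61 FPKM in control MNs and 5.80 FPKM in SMA MNs, a log2 ratio of 0.68 or a 1.60-fold higher level. The ratio was above that of 89.0% of all genes. After centring on the median gene it was 0.97. Pou3f2 was 15.3 times as abundant as Pou3f1 in control MNs, and Pou3f1 was 3.00 times as abundant as Pou3f2 in SMA MNs. The highest class III level thus belonged to Pou3f2 in one genotype and to Pou3f1 in the other.

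**Figure D2:**
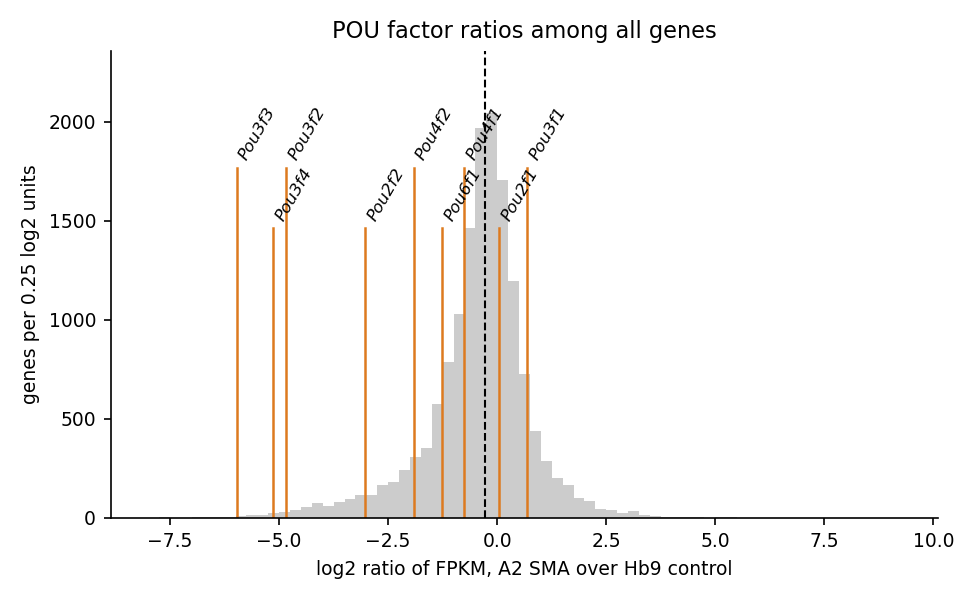
Log2 ratio of FPKM in A2 SMA over Hb9 control MNs for the 14926 genes (grey, genes per bin of 0.25) with the 9 POU genes as orange lines of arbitrary height and the median gene at -0.29 as a dashed line. Pou3f2, Pou3f3 and Pou3f4 lie in the far left tail, and Pou2f1 and Pou3f1 lie to the right of the median gene.

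The promoters of the 9 genes were read from RefSeq (GRCm38.p6), as 250 bases before and 50 bases after each annotated start. Of the 9 genes 8 had an entry, with 10 promoters in all, and Pou3f1 had none. The octamer ATGCAAAT, searched on both strands, was in 0 of these 10 promoters and in 1.74% of all 32851 promoters. The CCAAT box, searched as CCAAT on both strands, was in the promoters of 3 of the 8 genes, which are Pou3f2, Pou3f3 and Pou3f4, and in those of 41.1% of all genes. The 8 matches are shown because they lie in the promoters of the 3 genes with the largest differences. They were picked with those values known, and a match is a run of letters, not a shown binding site. The windows are chr4:22488317-22488616 on the minus strand for Pou3f2, chr1:42695518-42695817 on the plus strand for Pou3f3 and chrX:110814129-110814428 on the plus strand for Pou3f4. The GENCODE M21 annotation starts Pou3f4 earlier, at 110814280. The Pou3f4 matches 76 and 35 bases before the RefSeq start therefore lie inside the gene in that annotation. Each line reads 5′ to 3′ on the strand of the gene and names the distance from the first capital to the start, and capitals mark CCAAT or ATTGG, the same motif on the other strand.
Pou3f2, 229 bases before the start: acagctctgcaCCAATcactggctccg
Pou3f2, 166 bases before the start: agggcgcagagCCAATgggagggggtg
Pou3f3, 160 bases before the start: ttaaaaagcaaCCAATcggaacggccg
Pou3f3, 103 bases before the start: ttccaggcttgCCAATcacccagcggg
Pou3f3, 84 bases before the start: ccagcgggtagCCAATcagcaggggcc
Pou3f4, 179 bases before the start: gagctaggcagCCAATggagcctaaag
Pou3f4, 76 bases before the start: cccgcaccaccATTGGctgtgtttatg
Pou3f4, 35 bases before the start: gtcgcactgcgATTGGcctccgcgggt

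Other short motifs were searched in the same way. The GC box GGGCGG was in the promoters of 7 of the 8 genes, all but Pou3f4, and in those of 38.2% of all genes. TATAAA and the Sox motif ACAAAG were each found for Pou2f1 alone, against 15.7% and 21% of all genes. Both of the latter lie in alternative promoters of Pou2f1, whose GC content was 28.7% and 38.0%. The remaining promoters of the 8 genes had a GC content from 57.7% for Pou3f4 to 78.3% for Pou4f1, beside a median of 52.7% over all promoters.

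Class II holds Pou2f1 (Oct1), which is made in most cell types, and Pou2f2 (Oct2), which is best known from B lymphocytes and is also made in neural cells. Pou2f1 lies on chromosome 1 in a locus from 167711206 to 167932809 that it shares with Cd247. It was at 25.2 FPKM in control MNs and 25.9 FPKM in SMA MNs. The log2 ratio was 0.04, and 0.33 relative to the median gene. Pou2f2 (chr7:25875630-25964826) was at 21.7 and 2.66 FPKM, an 8.16-fold lower level in SMA MNs with a log2 ratio of -3.03. Pou2f1 was 1.16 times as abundant as Pou2f2 in control MNs and 9.72 times as abundant in SMA MNs.

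B lymphocyte markers were low in both genotypes, although none was listed at 0. Over the 6 markers the summed level was 1.05 FPKM in control MNs and 2.50 FPKM in SMA MNs. Pou2af1, the B cell coactivator of octamer factors, was named after its values were seen and was at 0.0339 and 0.0693 FPKM and Cd79a at 0.125 and 0.381 FPKM. Cd79b reached 0.798 and 1.93 FPKM. The entry of Pou2f2 also carries the symbol of a clone-based gene model.

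Class IV is represented by Pou4f1 (Brn3a), a factor of sensory and some dorsal spinal neurons, and Pou4f2 (Brn3b), a factor of retinal ganglion cells. Pou4f1, on chromosome 14 from 104861537 to 104867208, was at 9.06 FPKM in control MNs and 5.34 FPKM in SMA MNs. Its log2 ratio was -0.76, which is within 2-fold, and -0.47 relative to the median gene. Pou4f2, on chromosome 8 from 80956908 to 80960544, was at 1.01 and 0.267 FPKM. The log2 ratio was -1.92, but both levels are close to or below 1 FPKM, and a pseudocount of 1 FPKM moves it to -0.67, within 2-fold. It was the least abundant of the 9 genes in both genotypes.

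Pou6f1 (Brn5, Emb), the class VI member, is widely made in the nervous system. Its locus is chr15:100405749-100430430, and it had 15.0 FPKM in control MNs and 6.26 FPKM in SMA MNs. The level was 2.39-fold lower in SMA MNs, a log2 ratio of -1.26. After centring on the median gene it was -0.97, within 2-fold.

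In control MNs the order of the levels ran from Pou3f2 through Pou3f3, Pou2f1, Pou2f2, Pou3f4, Pou6f1, Pou4f1 and Pou3f1 to Pou4f2. In SMA MNs it ran from Pou2f1 through Pou6f1, Pou3f1, Pou4f1, Pou2f2, Pou3f2, Pou3f3 and Pou3f4 to Pou4f2. Pou2f2 and Pou3f4 were at nearly the same level in control MNs, and without values per sample it is not known which of the other neighbours differ. Pou2f1 made up 12.5% of the summed FPKM of the 9 genes in control MNs and 52.3% in SMA MNs.

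The sum over the 9 genes was 201 FPKM in control MNs and 49.5 FPKM in SMA MNs, a 4.05-fold difference. Without Pou3f3, the entry with the status FAIL, the sums were 152 and 48.8 FPKM. The 4 class III genes together were at 129 FPKM in control MNs and 9.12 FPKM in SMA MNs, which is 64.1% and 18.4% of the 9 genes. Class II gave 46.9 and 28.5 FPKM, and its share was 23.4% in control MNs and 57.6% in SMA MNs.

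Pou5f1 was at 98.3 FPKM in control MNs and 775 FPKM in SMA MNs. It held 32.8% of the FPKM of all 15 POU genes in control MNs and 93.9% in SMA MNs. Pou5f1 was 1.78 times as abundant as Pou3f2 in control MNs and 401 times as abundant in SMA MNs. The other 5 POU genes were each under 1 FPKM in both genotypes. Pou2f3, a factor of epidermis and chemosensory cells, was the highest of these at 0.119 and 0.654 FPKM. Pou4f3, a factor of inner ear hair cells, was at 0.0369 and 0.136 FPKM. Pou5f2 was at 0.0362 FPKM in control MNs and listed at 0 in SMA MNs, and Pou1f1, the pituitary factor that gave the family part of its name, was listed at 0 in both.

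**Figure D3:**
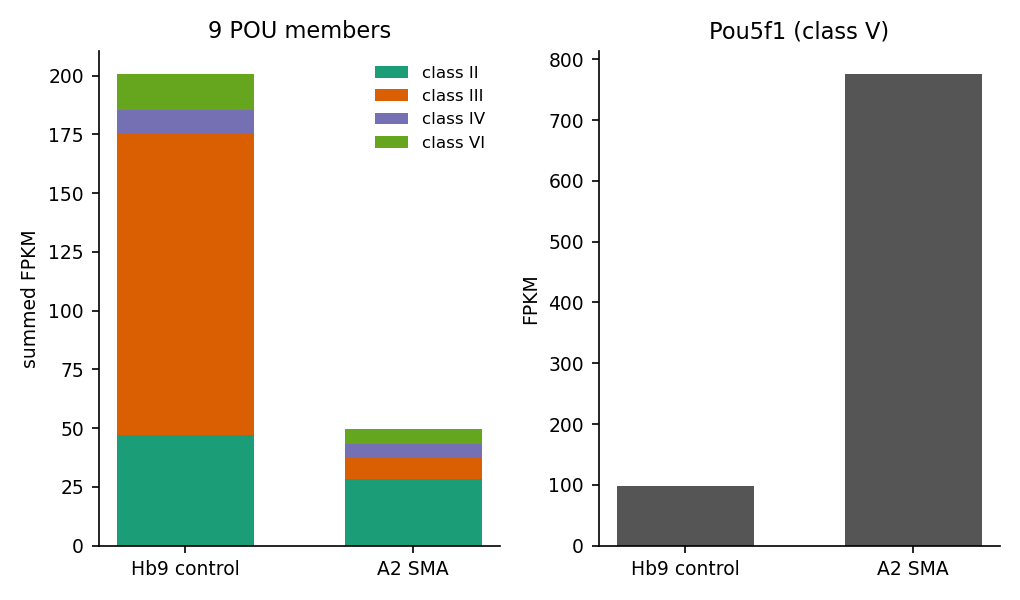
Summed FPKM of the 9 POU genes by class (left) and FPKM of Pou5f1 (right) in Hb9 control and A2 SMA MNs, with both axes starting at 0 but drawn to different scales. The left bars reach 201 and 49.5 FPKM, mostly through class III in Hb9 control MNs and class II in A2 SMA MNs, and the right bars reach 98.3 and 775 FPKM.

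Markers of other cell types also differed between the genotypes, in both directions. Of 9 markers of pluripotent cells 8 were at least 2-fold higher in SMA MNs, and their summed level was 293 FPKM in control MNs and 1850 FPKM in SMA MNs. Pou5f1, with the levels given above, is 1 of these 9 markers and is counted in the sums. None of them was at 0 in either genotype. Utf1 was at 59.8 and 357 FPKM and Nanog at 41.4 and 236 FPKM. Of 10 neuronal markers 8 had an entry, and all 8 were at least 2-fold lower, with sums of 899 and 118 FPKM. Nefl, a neurofilament subunit, was at 297 and 17.0 FPKM, Stmn2 at 242 and 78.0 FPKM and Elavl4 at 199 and 11.3 FPKM. Neural progenitor markers summed to 2386 and 221 FPKM, with 7 of 8 at least 2-fold lower. Of these Vim was at 1436 and 178 FPKM, Fabp7 at 553 and 5.52 FPKM and Nkx6-1 at 158 and 7.46 FPKM. Among the genes named with these and the following lists, Utf1, Stmn2, Sox4, Nes, Cdk5r1 and Lmx1b have the status FAIL, and others with it are marked where they are named. The part of these differences in the POU levels was not tested, and in bulk samples fewer cells of a type and less RNA per cell cannot be told apart.

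The labelled cell type was checked against motor neuron markers. Of the 10 markers 9 had an entry and 8 passed the filter, of which 6 were at least 2-fold lower in SMA MNs, with a median log2 ratio of -3.38, or -2.57 with no filter and also without entries of the status FAIL, and -2.71 with a pseudocount of 1 FPKM. The sums were 274 and 90.9 FPKM. Isl1, a LIM homeobox factor of motor and sensory neurons, was at 108 and 5.95 FPKM. Foxp1, a factor of limb motor columns, was at 47.1 and 34.9 FPKM. Chat, which makes acetylcholine and was named after its values were seen, was at 15.5 FPKM in control MNs and 0.344 FPKM in SMA MNs.

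Genes that work with class III factors were mostly lower too. Of 7 partners with an entry 5 were at least 2-fold lower, with a median log2 ratio of -3.43, or -2.01 with a pseudocount of 1 FPKM and -2.73 where 5 FPKM was required. Sox2, which pairs with POU factors on DNA, was at 179 and 197 FPKM, a log2 ratio of 0.14. Sox11 was at 151 and 14 FPKM and Sox4 at 144 and 35.1 FPKM. Of 5 neural targets 4 passed the filter, and all 4 were at least 2-fold lower, with a median log2 ratio of -3.41, or -5.02 without entries of the status FAIL. They were Fabp7, Dll1 (91.2 and 8.65 FPKM), Nes (66.3 and 7.07 FPKM) and Cdk5r1 (23.2 and 2.16 FPKM), the last of which was named after its values were seen.

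Of 8 cofactors of the octamer factors Pou2f1 and Pou2f2, the 7 that passed the filter were within 2-fold, with a median log2 ratio of -0.33 beside -0.29 for all genes. Hcfc1, the host cell factor that joins Pou2f1 in a complex at herpesvirus promoters, was at 120 and 127 FPKM. Tbp was at 64.1 and 59.0 FPKM and Snapc4, the subunit of the small nuclear RNA activating complex that contacts Pou2f1, at 45.4 and 36.2 FPKM. Hcfc1, Tbp and Snapc4 have the status FAIL. The remaining cofactor, Pou2af1, was below the filter in both genotypes and 2.04-fold higher in SMA MNs, with the levels given above.

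Of 12 partners and targets of class IV factors, 8 passed the filter and 6 of these were at least 2-fold lower in SMA MNs, with a median log2 ratio of -2.48. Isl1, which acts with Pou4f1 in sensory neurons, is among them with the levels given above. Neurod4 was at 49.4 and 1.57 FPKM. Rbpms, a marker of retinal ganglion cells, was at 74.9 FPKM in control MNs and 125 FPKM in SMA MNs (status FAIL). In a list of dorsal and sensory neuron markers 4 of 11 passed the filter, and 2 of these were at least 2-fold lower, with a median log2 ratio of -1.28 that ran from -0.077 with no filter to -2.48 where 5 FPKM was required. Lmx1b was at 13.0 and 12.3 FPKM. Tlx3 and Prrxl1, which mark the same sensory neurons as Pou4f1 and were named after their values were seen, were under 1 FPKM in both genotypes.

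Epiblast genes were set beside Pou3f1, since Pou3f1 belongs to that program in the embryo. Of 10 such genes 5 were at least 2-fold higher in SMA MNs and 2 were at least 2-fold lower, and the median log2 ratio was 0.85. Dnmt3a was at 132 and 157 FPKM. Cdh2, which is also a neural adhesion gene, was at 82.0 and 14.4 FPKM. Fgf5, the standard epiblast marker, was named after its values were seen and was at 0.449 FPKM in control MNs and 1.69 FPKM in SMA MNs. Schwann and glial markers, the other setting in which Pou3f1 is well known, had 2 of 6 genes past the filter. Both were at least 2-fold lower, among them Sox10 at 6.48 and 0.525 FPKM, and Egr2 was at 0.195 and 0.531 FPKM.

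**Figure D4:**
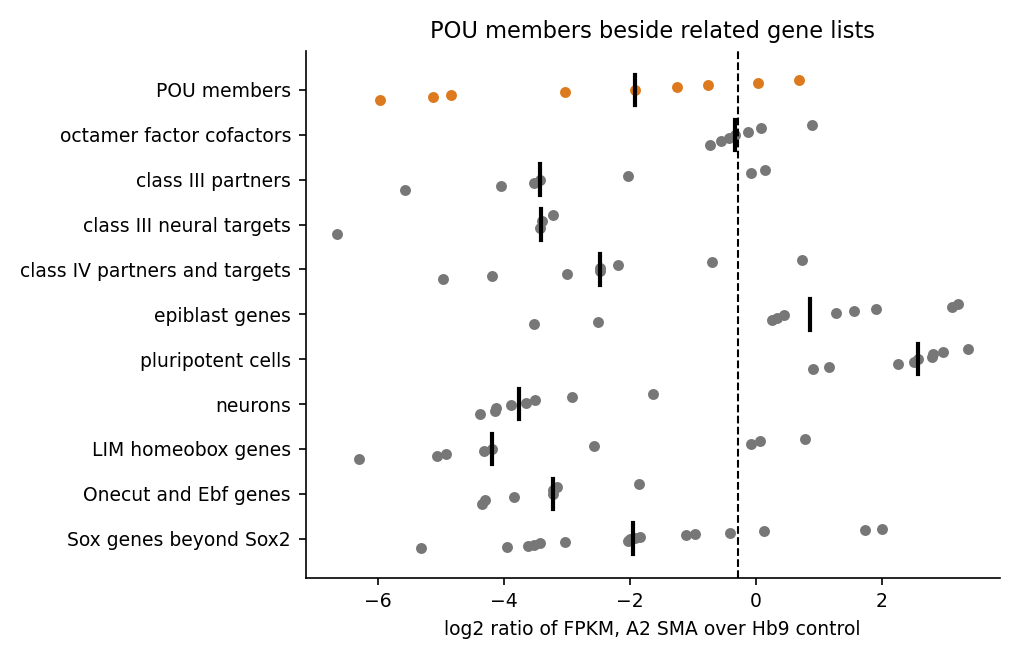
Log2 ratio of FPKM in A2 SMA over Hb9 control MNs for each gene past the filter in the POU genes (orange) and in 10 other lists (grey), with the median of each list as a black bar and that of all genes as a dashed line. The POU genes spread from -5.97 to 0.68, wider than the 7 octamer factor cofactors, which stay within 2-fold.

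The neighbours of the 9 genes were listed within 100000 bp of each locus on NCBI m37, which gave 55 entries, 37 of them past the filter. At least 2-fold lower FPKM was found for 27.0% of the 37 and at least 2-fold higher FPKM for 10.8%, beside 22.4% and 6.83% of all genes with a symbol. The neighbours as a whole were thus near the background.

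Pou3f3 has 2 neighbouring entries in this window, and both were far lower in SMA MNs. The entry 2610017I09Rik ends 52 bp before the Pou3f3 locus and runs from 42705007 to 42751717. RefSeq gives this name as a synonym of Pantr1, also called linc-Brn1a, a long noncoding RNA that GENCODE M21 places on the strand opposite Pou3f3. It was at 77.1 FPKM in control MNs, above Pou3f3 itself, and at 0.734 FPKM in SMA MNs, a 105-fold difference with a log2 ratio of -6.72. The entry RP23-114H2.1.1, which shares the locus of Pou3f3, was at 1.5 and 0.0896 FPKM (status FAIL). That locus spans 46.0 kb, whereas the annotated Pou3f3 transcript is 7409 bases long.

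Beside Pou3f2, 3 unnamed loci on the side of higher coordinates lie 2591, 3023 and 4735 bp away. Their levels in control MNs were 3.67, 2.91 and 3.29 FPKM. In SMA MNs they were at 0.589 and 0.0928 FPKM, and the last was listed at 0. GENCODE M21 annotates Pou3f2 on the minus strand of GRCm38, with the noncoding gene Gm30731 starting 2181 bp upstream of it on the other strand. No coordinates were converted between the builds, so these loci were not assigned to that gene. Fbxl4, a mitochondrial F-box gene 47193 bp away on the other side, was at 14.7 and 10.6 FPKM.

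Pou2f2 shares its locus with D930028M14Rik, a noncoding gene that lies inside Pou2f2 on the opposite strand in GENCODE M21. D930028M14Rik was at 40.6 FPKM in control MNs and 1.84 FPKM in SMA MNs, a 22.0-fold difference. An unnamed locus 2281 bp away was at 15.0 and 1.11 FPKM. Grik5, a kainate receptor subunit 15170 bp away, was at 40.1 and 9.98 FPKM (status FAIL). Zfp574, which lies between Grik5 and Pou2f2, was at 19.8 and 16.2 FPKM, and Erf, an ETS repressor 62753 bp away, was at 45.2 and 97.5 FPKM. Lower, higher and similar levels are thus mixed around this gene.

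Around the other members the neighbours varied. All 4 neighbours of Pou3f1 past the filter had log2 ratios from -0.06 to 0.32, and the 3 of Pou4f2 had ratios from 0.04 to 0.09. Rnf219, 9542 bp from Pou4f1, was at 11.8 and 5.55 FPKM. Pou6f1 had 7 neighbours past the filter, with log2 ratios from -1.71 for Letmd1 (status FAIL) to 1.52 for Smagp. Pou2f1 shares its locus with Cd247, and distances were taken from the shared locus. In GENCODE M21 (GRCm38) Cd247 starts at 165788681 and Pou2f1 at 165865154, so the lower end of that locus is that of Cd247. Creg1, 5766 bp from this lower end, was at 25.3 and 26.6 FPKM. Dusp27, 95439 bp from the other end, was at 1.64 and 17.8 FPKM (status FAIL). Pou3f4 had no entry within the window.

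**Figure D5:**
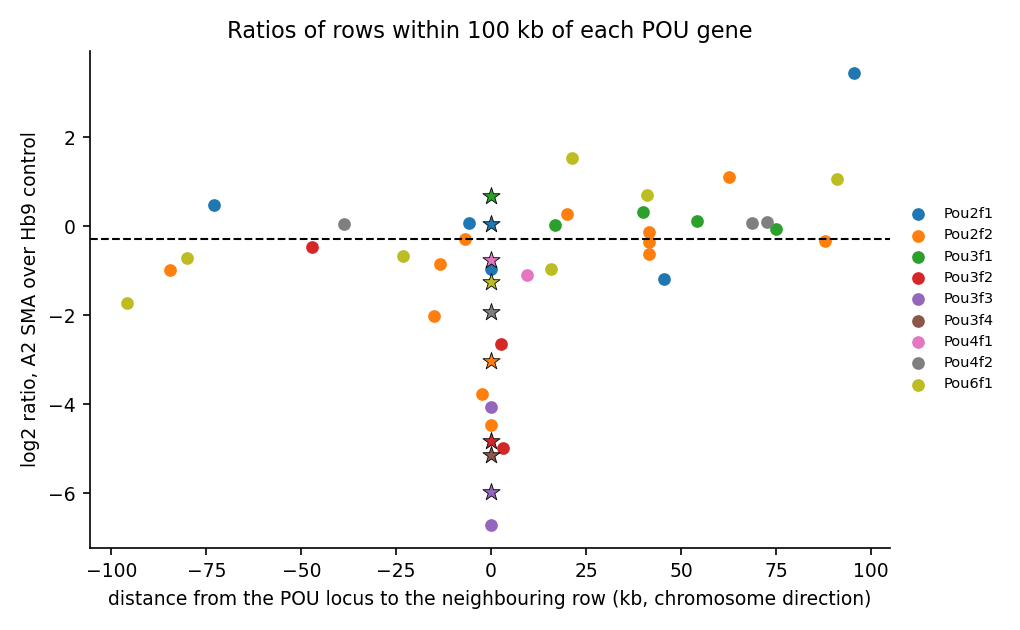
Log2 ratio of FPKM in A2 SMA over Hb9 control MNs against the distance in kb from each POU locus, for the 37 neighbouring entries past the filter (circles) and the 9 POU genes (stars at 0), coloured by POU gene. The closest entries to Pou3f3, Pou3f2 and Pou2f2 lie far below the dashed line of the median gene, other entries near Pou2f2 lie on both sides of it, and those around Pou3f1 and Pou4f2 lie near 0.

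Reads that could belong to more than 1 gene were looked for in GENCODE M21, by asking which 50-base stretches of the coding transcripts of each member, the length of the sequenced reads, also occur on either strand in a transcript of another gene. For Pou3f2, Pou3f3, Pou3f4, Pou2f2, Pou4f1, Pou4f2 and Pou6f1 the share was under 1%, from 0.202% for Pou6f1 to 0.799% for Pou3f4. The class III genes shared no such stretch with each other. Pou4f1 and Pou4f2 had 23 stretches in common. For Pou3f1 7.42% of stretches were shared with the antisense gene Gm2164, and for Pou2f1 21% were shared with Cd247, which overlaps its end on the opposite strand. Cd247 was at 2.55 and 1.30 FPKM. The sources used here do not say that strand was used in counting, so reads from these shared stretches of Pou2f1 and Pou3f1 cannot be assigned to 1 of the overlapping genes. D930028M14Rik shared no such stretch with the coding transcripts of Pou2f2.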

How the data were processed

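RNA of FACS-purified Hb9 control and A2 SMA MNs was sequenced in 3 samples of each genotype, with single-end reads of 50 bases. The authors checked reads with FastQC (0.10.1), removed adapters and poly-A tails with cutadapt, mapped with TopHat2 (2.04 in the submitters' processing notes) to NCBI m37 with the Ensembl annotation, assembled transcripts with Cufflinks and compared genotypes with Cuffdiff. The deposited table holds the FPKM values that the authors obtained with Cuffdiff, 1 per genotype. Its fold changes, test statistics, p-values, q-values and significance marks are the authors' comparison and were not used. Starts in the table count from 0 and were raised by 1.

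For each symbol the entry with the highest FPKM was used. Log2 ratios (A2 SMA over Hb9 control) had no pseudocount, and genes below 1 FPKM in both genotypes or at 0 in either were left out of lists. No test was possible, so counts past 2-fold were set beside those of all genes. Named were the members, other POU genes, neighbours within 100000 bp and the 3 most abundant genes of each list, plus genes said to be chosen later, and a few of these are not reported here. The members and lists were chosen with earlier results of these data known. Alternatives were pseudocounts of 0.1 and 1 FPKM, centring on the median gene, summed entries, other filters and other folds. Python 3.11.15, numpy 2.4.6, pandas 2.3.3 and matplotlib 3.10.9 were used, and the ratio step was tested on simulated data.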

Additional observations from a re-analysis of the deposited data

How the results depend on the processing

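A value was taken to have moved when it changed by more than 1.5-fold, and no value changed sign while past 2-fold. No paired analysis was possible because the table gives 1 value per genotype, and for the same reason no sample could be left out. Of 36 alternative ratios of the 9 genes 33 stayed within that limit. With a pseudocount of 1 FPKM the log2 ratios were -4.80 for Pou3f3, -3.81 for Pou3f4 and -0.67 for Pou4f2, and the median of the 9 genes was -1.14. Of the 9 genes 5 were lower with that pseudocount (Pou4f2 lost), beside 17.2% of all genes. With centred ratios 5 of 9 were lower (Pou6f1 lost), beside 16.5%. Without the status FAIL 5 of 8 were lower (Pou3f3 lost), beside 23.4% of all genes. With at least 5 FPKM required 5 of 8 were lower (Pou4f2 lost), beside 20.0%. The count of lower genes was 7 at 1.5-fold and 4 at 4-fold, and 1 gene (Pou3f1) was higher at 1.5-fold. The share of all genes that were higher was 4.28% with the pseudocount of 1 FPKM, 10.4% with centred ratios, 12.7% at 1.5-fold and 1.80% at 4-fold, and that of lower ones was 35.4% at 1.5-fold and 8.88% at 4-fold. Medians not given above were -3.77 for neurons, -4.85 for neural progenitors, -2.73 for Schwann and glial cells and 2.98 for other POU genes (Pou5f1 alone past the filter). List medians under the pseudocount of 1 FPKM were -2.33 for LIM homeobox genes, -2.47 for Onecut and Ebf genes, -1.90 for Schwann and glial cells, -2.01 for class III partners, -2.71 for motor neurons, -4.25 for neural progenitors, -3.13 for neurons and -2.12 for ventral interneurons. With no filter they were -1.32 for LIM homeobox genes, -1.05 for Schwann and glial cells, -0.077 for dorsal and sensory neurons, -2.57 for motor neurons and 2.17 for other POU genes. With at least 5 FPKM they were -2.73 for class III partners and -2.48 for dorsal and sensory neurons. Without the status FAIL they were -5.02 for class III neural targets, -2.21 for dorsal and sensory neurons and -2.57 for motor neurons. A pseudocount pulls ratios of low levels towards 0 by construction. Filters shift medians through the fewer or more genes that pass, and other folds shift counts by construction. Depth per gene is unknown, so levels under 1 FPKM have no stated precision.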

Other observations

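Gene lists that belong to no POU factor described above were read in the same samples. All 8 ventral interneuron markers past the filter were at least 2-fold lower in A2 SMA MNs, with a median log2 ratio of -3.98, or -2.12 with a pseudocount of 1 FPKM. Lhx1 was at 21.2 and 0.696 FPKM in Hb9 control and A2 SMA MNs, Gata2 at 20.7 and 4.0 FPKM and Gata3 at 15.8 and 4.86 FPKM. Of 5 endoderm markers 4 passed the filter and 2 were at least 2-fold lower, with a median of -0.88. Foxa2, which is also made in the floor plate, was at 55.9 and 18.2 FPKM, Gata4 at 16.9 and 10.7 FPKM (status FAIL) and Sox17 at 7.22 and 3.36 FPKM.

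Other transcription factor families were read in the same way. Of 9 LIM homeobox genes past the filter 6 were at least 2-fold lower and none was 2-fold higher, with a median log2 ratio of -4.18. The median was -1.32 over all 12 genes with no filter and -2.33 with a pseudocount of 1 FPKM, and Lhx8, below the filter at 0.195 and 0.496 FPKM and named after its values were seen, had a log2 ratio of 1.34. After Isl1 the most abundant were Lhx3, at 27.6 and 0.348 FPKM, and Lhx1, with the levels given above. All 7 Onecut and Ebf genes were at least 2-fold lower, with a median of -3.22, or -2.47 with a pseudocount of 1 FPKM. Ebf1 was at 81.6 and 5.70 FPKM, Onecut1 at 36.9 and 1.88 FPKM and Ebf3 at 26.1 and 2.80 FPKM. Among 16 Sox genes other than Sox2, 11 were at least 2-fold lower and 2 higher, with a median of -1.96. Sox9 was at 75.4 and 4.87 FPKM. The families were not tested against the POU genes.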
